A study of Mus musculus with 12 samples.

Results

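The lateral and ventral lobes of the prostate were compared in mice labelled as Med1 knockouts, using 3 arrays of each lobe, which is 6 of the 12 arrays of the study. These arrays were chosen by their titles alone. The other 6 arrays came from the same lobes of wild-type mice and served here to define which genes mark each lobe in normal prostate. Total RNA of whole lobes was measured on single-colour Affymetrix expression arrays. All mice were 16 weeks old, and the labels give no treatment, no strain, no age at deletion and no promoter or cell type in which Med1 was removed. Nor do they state whether replicate arrays were made from different mice. Every p-value therefore reflects the scatter among the arrays at hand, and that scatter may be purely technical.

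The mouse prostate consists of paired lobes around the urethra, of which the ventral and lateral lobes have different ducts and make different secretions. Their luminal cells pour proteases, protease inhibitors, transglutaminase and small secreted proteins into the seminal fluid, under control of the androgen receptor. Med1 is a subunit of Mediator, the complex that carries signals from transcription factors, nuclear receptors among them, to RNA polymerase II. A lobe's identity is laid down in development by signals between stroma and epithelium and by transcription factors such as those of the Hox clusters. The comparison therefore asks which genes that tell the lobes apart still did so when Med1 was targeted.

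Values are log2 signals, so that 1 unit is a 2-fold difference, and a lobe difference is the lateral mean minus the ventral mean. A gene was called at a Benjamini-Hochberg adjusted p under 0.05 in limma, and it was called a lobe gene when the difference was also at least 1 log2 unit. The difference between genotypes, which is the knockout lobe difference minus the wild-type lobe difference, was tested for every gene in the same fit. A group mean under 4.63 log2 units, the lower quartile of all probe sets, is called low signal, beside which the true difference can be larger than the printed one.

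Some arrays need to be known before the results. The deposited ventral arrays had medians of 6.39 to 6.43 log2 units and the lateral arrays 6.05 to 6.06, and sorted values differed by a median range of 0.05 among ventral, 0.08 among lateral and 0.39 among all 12 arrays, as separate normalization of the lobes would give. All 12 arrays were therefore quantile-normalized together, but lobe and run coincide in both genotypes and cannot be told apart. Wild-type lateral replicate 3 carried more signal of ventral genes than its partners. It was the highest of the 3 wild-type lateral arrays for 34 of the 42 genes that were at least 3 log2 units higher in ventral in both genotypes. Wild-type ventral replicate 3 carried more seminal vesicle signal than its partners, and knockout lateral replicate 3 carried less. There were 50 genes at least 3 log2 units higher in lateral in both genotypes. Ventral replicate 3 was the highest of its 3 arrays for 30 of these in wild type and for 26 in the knockout. Where leaving out wild-type lateral replicate 3, wild-type ventral replicate 3 or knockout lateral replicate 3 changed the call of a gene named below, this is stated.

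The targeted gene was called lower in the knockout in the ventral lobe and was not called in the lateral lobe. Med1 read 8.62, 8.69 and 8.41 on the ventral arrays labelled knockout and 9.22, 9.20 and 9.02 on the wild-type ones, a difference of -0.57 (limma adjusted p = 0.0119) with no overlap. In the lateral lobe it read 8.67, 8.70 and 8.75 on the arrays labelled knockout and 8.86, 8.97 and 8.47 on the wild-type ones, which overlap through wild-type replicate 3 alone (-0.06, limma adjusted p = 0.839). The difference between the lobes in this effect was 0.51 and not called (limma adjusted p = 0.0876), or 0.36 (limma adjusted p = 0.163) without wild-type lateral replicate 3, and it was called with the mean of the probe sets of Med1 (0.51, limma adjusted p = 0.00981). Which exons were removed is not stated in the labels, and a probe set lying beyond them cannot serve as a check. Knockout status of the lateral libraries thus rests on their labels. Between the lobes of the knockout, Med1 differed by 0.13 ± 0.122 (SE; limma adjusted p = 0.36), and without the joint normalization this became -0.46 (limma adjusted p = 0.0045), so its direction is not settled.

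The tissue of every array carried prostate epithelium. The luminal keratin Krt18 averaged 12.67 log2 units in lateral and 12.58 in ventral knockout arrays, and Krt8 11.94 and 12.17. Hoxb13, a homeobox gene of the prostate, averaged 11.32 and 12.09. The summed picture of 15 luminal markers was level, with a mean of 10.90 to 10.95 on lateral and 10.82 to 10.83 on ventral knockout arrays. That mean averages members with opposite lobe differences, such as Prom1 (2.39) and Cldn10 (-1.43). Other lists were not level in the knockout. The median lobe difference was 2.69 for seminal vesicle products, 0.77 for smooth muscle, 0.62 for nerve and 0.53 for endothelial genes. Within the epithelium it was 0.88 for basal and -0.46 for proximal luminal genes. These lists are described below. In whole lobes, fewer cells of a type and less RNA per cell cannot be told apart.

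Lateral and ventral prostate differed widely in the knockout. Of 18194 genes, 11352 were called (62.4%), 6456 higher in lateral (35.5%) and 4896 higher in ventral (26.9%), and the arrays of the lobes did not overlap for 65.1% of genes. At 1 log2 unit or more there were 1943 (10.7%), 890 higher in lateral (4.89%) and 1053 higher in ventral (5.79%). The median difference over all genes was 0.08 and the median size 0.37. In wild type 10440 genes were called (57.4%) and 1923 were lobe genes (10.6%), 1061 higher in lateral (5.83%) and 862 in ventral (4.74%). With the values as deposited the median difference in the knockout moved to -0.31, and the share of calls that were higher in lateral fell from 56.9% to 21.1%. With arrays centred on their medians that share was 52.7%. A small difference is therefore best read against the shift of all genes, while the differences of several log2 units below did not depend on it.

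Most genes that told the lobes apart in wild type also did so in the knockout. Of the 1923 wild-type lobe genes, 1275 (66.3%) were lobe genes of the knockout in the same direction, which is 65.6% of the knockout's own 1943. Another 515 (26.8%) were called in the same direction at under 1 log2 unit, 122 (6.34%) were not called and 11 (0.572%) were called the other way. The 2 lobe differences share no array. Across all 18194 genes they correlated with Pearson's r of 0.866 and Spearman's rho of 0.831, where genes are not independent replicates and the comparisons share the normalization and the choice of probe set.

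**Figure D1:**
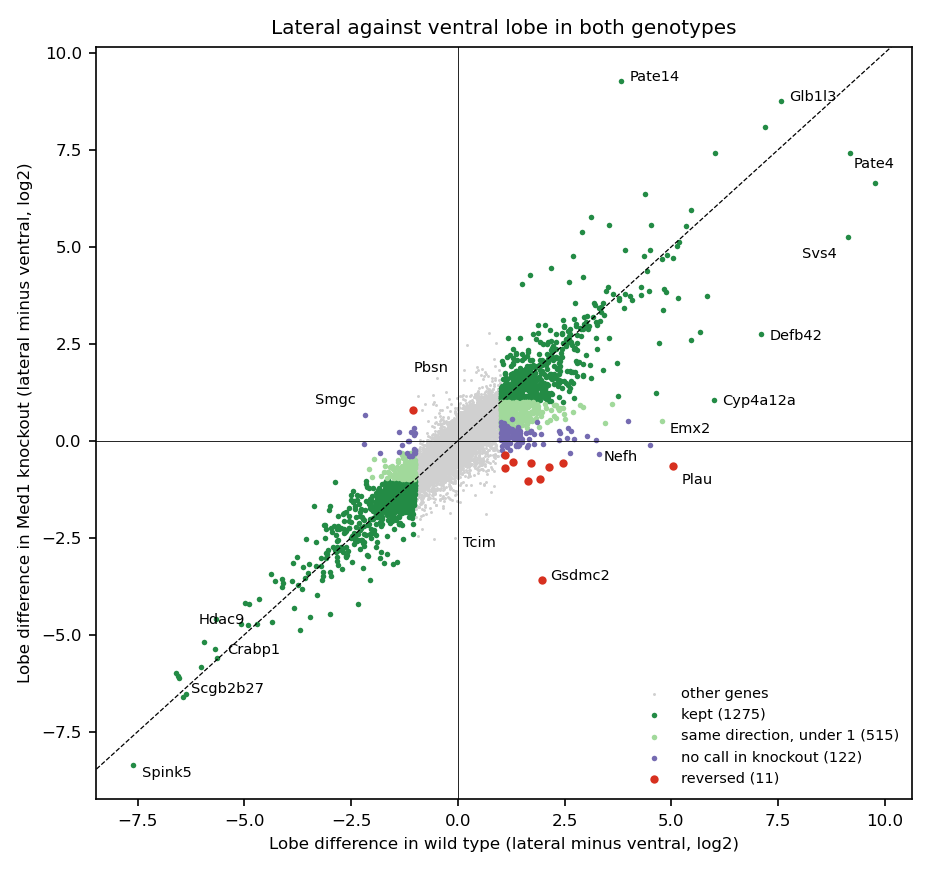
Lobe difference (lateral minus ventral, log2 units) of each of 18194 genes in wild type (horizontal axis) and in the Med1 knockout (vertical axis), with wild-type lobe genes coloured by what became of them: 1275 kept, 515 called at under 1 log2 unit, 122 not called and 11 reversed. The dashed line marks equal differences, and Pate14 lies far above it while Plau, Emx2, Nefh and Gsdmc2 lie far below.

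Lateral and ventral genes fared differently in count. Of 1061 genes higher in wild-type lateral prostate, 598 (56.4%) were kept, 352 (33.2%) fell under 1 log2 unit, 101 (9.52%) were not called and 10 (0.943%) reversed. Of 862 genes higher in ventral, 677 (78.5%) were kept, 163 (18.9%) fell under 1, 21 (2.44%) were not called and 1 (0.116%) reversed. The median ratio of knockout to wild-type difference was 0.755 for the lateral and 0.936 for the ventral genes. With each array left out in turn the share kept ran from 55.1% to 57.7% for lateral and from 76.9% to 78.5% for ventral genes. A list chosen for large wild-type differences will tend to show smaller ones in any other samples. Seen from the other side, 67.2% of the 890 lateral genes of the knockout were lobe genes in wild type, and 64.3% of its 1053 ventral genes, with median ratios of wild-type to knockout difference of 0.917 and 0.865. In this reading the ventral genes were thus the ones shared less, by a smaller margin. Of the knockout's own lobe genes, 5.6% of the ventral and 2.81% of the lateral ones were not called in wild type. The gap between lateral and ventral genes was not tested in either reading.

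Kept means at least 1 log2 unit, so a large difference can lose most of its size and still count as kept, as Cyp4a12a (6.0 to 1.04) did, and the shares by size below are partly set by that threshold. Among lateral genes 47.8% of the 814 with a wild-type difference of 1 to 2 log2 units were kept, 83% of 171 at 2 to 3, 84.6% of 39 at 3 to 4 and 91.9% of 37 at 4 or more. Among ventral genes the shares were 73.5% of 684, 96.7% of 123, all 32 and all 23. The 3 lateral genes of 4 units or more that were not kept were the urokinase gene Plau, the homeobox gene Emx2 and the neurofilament gene Nefh, which are described below.

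The difference between genotypes was called for 1561 genes (8.58%), 574 with a lobe difference that lay more towards lateral in the knockout (3.15%) and 987 more towards ventral (5.42%). Among lateral lobe genes it was called for 386, of which 345 (32.5%) shrank and 41 (3.86%) grew. Among ventral lobe genes it was called for 135, of which 93 (10.8%) shrank and 42 (4.87%) grew. These tests use the wild-type arrays that chose the lobe genes, so shrinking is favoured by the choice. The count of 1561 fell to 1007 without wild-type lateral replicate 3, to 840 without both wild-type ventral replicate 3 and knockout lateral replicate 3, and to 826 without both lateral replicates 3.

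The largest lateral excesses in the knockout were those of Pate14, Glb1l3 and Nlrp10. Pate14, a small cysteine-rich secreted protein, read 13.42, 13.41 and 13.45 on the lateral arrays and 3.94, 4.19 and 4.33 on the ventral ones. Its lobe difference was 9.27 ± 0.175 (SE; limma adjusted p = 4.94e-13), at least 619-fold since the ventral signal was low. Lateral arrays stood at the top of the scale and ventral arrays at the bottom, far apart. In wild type the difference was 3.82, because the ventral arrays there read 9.73, 8.98 and 9.83 while the lateral ones read 13.41, 13.25 and 13.33. The difference between genotypes was 5.46 ± 0.247 (limma adjusted p = 6.29e-08), and it lay in the ventral lobe.

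Glb1l3, which encodes a protein related to beta-galactosidase, was next. It read 11.50, 11.39 and 11.49 in lateral and 2.85, 2.17 and 3.06 in ventral knockout arrays, a difference of 8.76 ± 0.189 (limma adjusted p = 1.62e-12) against low ventral signal. The wild-type difference was 7.57 (1.19 between genotypes, limma adjusted p = 0.0151). That call was lost without both lateral replicates 3 (1.15, limma adjusted p = 0.0697). Nlrp10, a member of the NOD-like receptor family, read 10.99, 11.14 and 11.12 in lateral and 3.40, 3.0 and 2.55 in ventral, a difference of 8.10 (limma adjusted p = 1.98e-11) beside 7.20 in wild type. The genotype difference of Nlrp10 was 0.90 (limma adjusted p = 0.116) and was called without wild-type ventral replicate 2 (1.19, limma adjusted p = 0.0228). For both genes all lateral arrays lay above 10 log2 units and no ventral array above 4 in the knockout. The pore-forming gasdermin gene Gsdma differed by 7.41 ± 0.155, with 11.83, 11.81 and 11.83 in lateral and 3.92, 4.61 and 4.71 in ventral arrays.

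The lobe differences of Mmp7, Tgm4 and Fcgbp were larger in the knockout than in wild type, unlike those of several seminal vesicle products given below. Mmp7, the matrix metalloprotease matrilysin, read 13.12, 13.06 and 13.15 in lateral and 7.37, 7.53 and 7.74 in ventral knockout arrays, a difference of 5.56 ± 0.125 (limma adjusted p = 1.92e-12) against 3.54 in wild type. Tgm4, the transglutaminase that cross-links clotting proteins of semen, read 13.69, 13.67 and 13.72 in lateral and 8.14, 8.05 and 8.76 in ventral, a difference of 5.38 ± 0.164 against 2.91. Fcgbp, a mucus protein that binds immunoglobulin G, had 13.84, 13.74 and 13.81 in lateral and 7.80, 7.68 and 8.63 in ventral, a difference of 5.76 ± 0.195 against 3.11. Lateral levels of these 3 genes were close to wild type (-0.06 for Mmp7, 0.00 for Tgm4 and -0.01 for Fcgbp, none called), while ventral signal differed from wild type by -2.08 for Mmp7, -2.47 for Tgm4 and -2.66 for Fcgbp. The lateral signals lay near the top of the scale, where a true difference can be larger than the printed one. The difference between genotypes was called for each of them, with limma adjusted p of 2.2e-05 for Mmp7, 3.92e-05 for Tgm4 and 8.9e-05 for Fcgbp.

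The same ventral wild-type arrays that held Pate14, Tgm4 and Fcgbp did not hold every lateral gene. Slc26a3, an exchanger of chloride and bicarbonate, read 4.36, 4.31 and 4.55 in wild-type ventral and 4.12, 4.34 and 4.0 in knockout ventral arrays, at low signal in both. Its lobe difference was 5.53 ± 0.103 in the knockout (limma adjusted p = 4.94e-13) and 5.34 in wild type, with no call between genotypes (0.19, limma adjusted p = 0.445). Tex33 behaved alike, at 5.03 and 5.13. The glycoprotein gene Nxpe3 differed by 5.95 ± 0.0734 and the basement membrane collagen chain Col4a6 by 5.56 ± 0.151, each with ventral knockout arrays below the lateral ones by over 4 log2 units. Unlike Slc26a3, both were called between genotypes with all arrays, Nxpe3 at 0.49 (limma adjusted p = 0.011). With the mean of probe sets neither was called (0.18, limma adjusted p = 0.314, for Nxpe3 and 0.69, limma adjusted p = 0.111, for Col4a6).

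**Figure D2:**
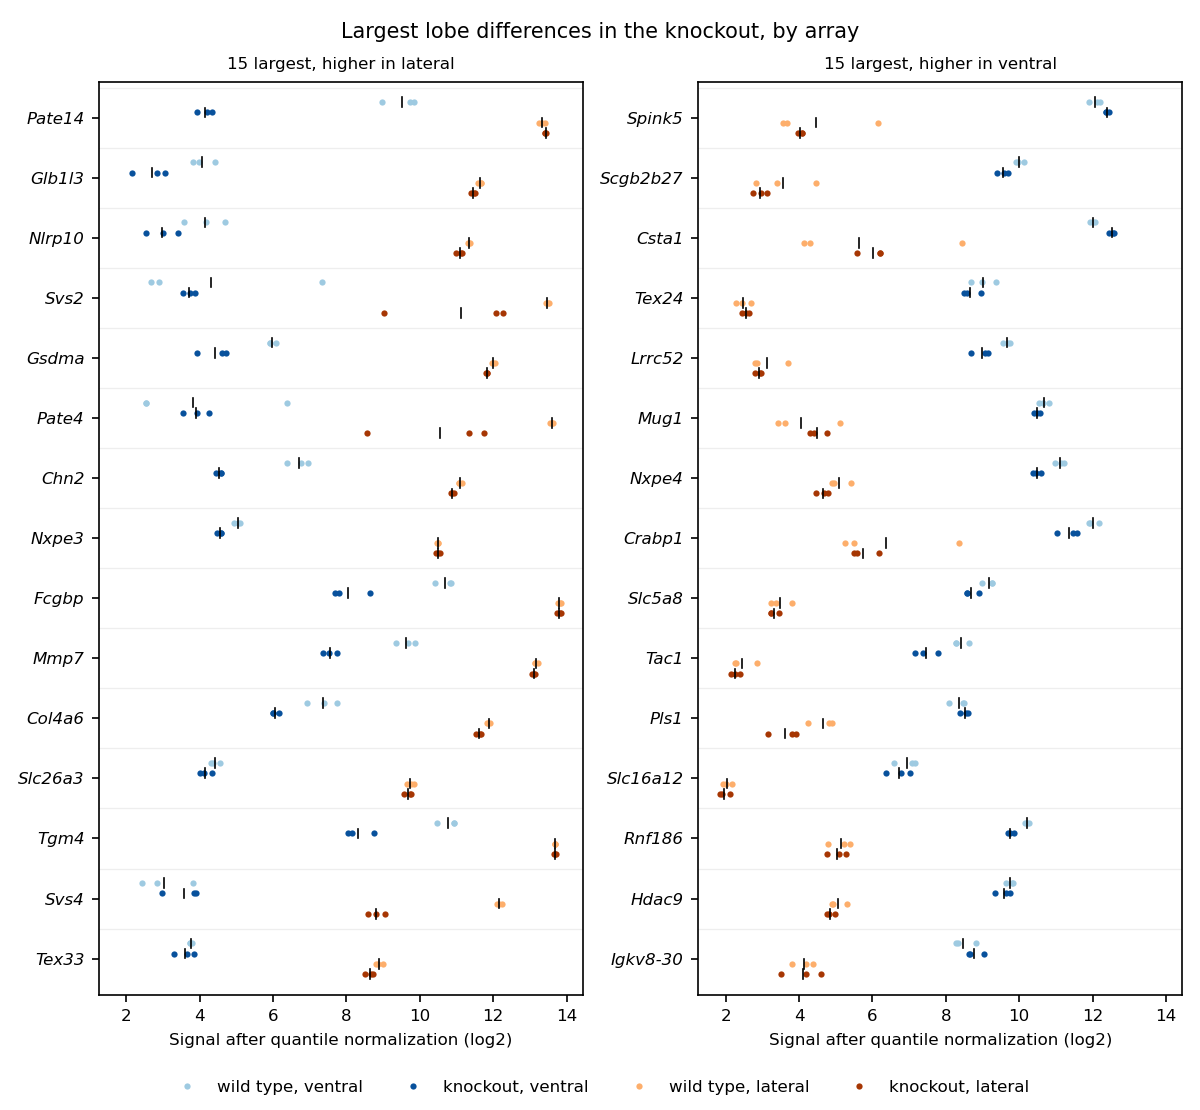
Signal (log2 units, horizontal axis) on each of the 12 arrays for the 15 genes with the largest lateral excess (left) and the 15 with the largest ventral excess (right) in the knockout, with points for arrays and a bar for each group mean. Only genes whose lateral and ventral knockout arrays do not overlap were eligible, so the separation of those arrays follows from the choice. For Pate14 the wild-type ventral arrays lie between the lateral and ventral knockout arrays.

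Among the largest ventral excesses were those of Spink5, Scgb2b27 and Csta1. Spink5, a serine protease inhibitor, read 12.36, 12.46 and 12.38 in ventral and 3.97, 4.07 and 4.07 in lateral knockout arrays, a difference of -8.36 ± 0.475 (limma adjusted p = 1.01e-08), at least 329-fold. The ventral arrays were uniformly high and the lateral arrays at low signal. In wild type the lateral arrays read 3.68, 3.57 and 6.15, the last being replicate 3, and the difference was -7.60. Between genotypes it differed by -0.76 (limma adjusted p = 0.522) and by 0.08 (limma adjusted p = 0.777) without that array.

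Csta1, a cystatin that inhibits cathepsins, read 12.59, 12.46 and 12.55 in ventral and 6.21, 5.59 and 6.22 in lateral knockout arrays, a difference of -6.53 ± 0.792. The groups were more than 6 log2 units apart. In wild type the lateral arrays read 4.15, 4.30 and 8.45, so replicate 3 lay above every knockout lateral array and its partners below. The difference between genotypes was -0.15 (limma adjusted p = 0.948) and became 1.26 (limma adjusted p = 0.00489) without that array, the opposite sign, so whether the ventral excess of Csta1 shrank rests on 1 library. For Crabp1, which binds retinoic acid in cells, the ventral arrays read 11.46, 11.57 and 11.03 and the lateral ones 5.51, 6.17 and 5.58 in the knockout, a difference of -5.60 ± 0.578. Its difference between genotypes was 0.04 (limma adjusted p = 0.981) and 1.04 (limma adjusted p = 0.0416) without wild-type lateral replicate 3.

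Further ventral genes were not called between genotypes with all arrays. The secretoglobin Scgb2b27 read 9.39, 9.69 and 9.59 in ventral and 3.13, 2.75 and 2.97 in lateral knockout arrays, a difference of -6.61 ± 0.289 beside -6.44 in wild type. Murinoglobulin 1 (Mug1), a broad protease inhibitor, differed by -5.99 beside -6.61, and the monocarboxylate transporter Slc5a8 by -5.38 beside -5.69. The histone deacetylase Hdac9 differed by -4.72 ± 0.129 beside -4.71, and the ubiquitin ligase Rnf186 by -4.72 beside -5.07. For these 5 genes the difference between genotypes was not called, with limma adjusted p from 0.332 for Rnf186 to 0.972 for Hdac9. Without wild-type lateral replicate 3, however, Mug1 was called at 1.15 (limma adjusted p = 0.00339), a smaller ventral excess in the knockout. Pls1, an actin-bundling protein of microvilli, was called between genotypes, with -4.89 in the knockout and -3.70 in wild type (-1.19 ± 0.287, limma adjusted p = 0.0221), a call that was lost without any of 4 arrays, wild-type lateral replicates 1 and 3, wild-type ventral replicate 3 and knockout ventral replicate 3 (limma adjusted p = 0.0577 without wild-type lateral replicate 3).

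Transport genes divided the lobes in both directions. Trpv6, a calcium channel of secretory epithelium, read 11.23, 11.19 and 11.02 in ventral and 6.74, 6.42 and 6.90 in lateral knockout arrays. Its difference of -4.46 ± 0.193 was larger than the -2.99 of wild type (-1.47 ± 0.274 between genotypes, limma adjusted p = 0.00528), and the lateral arrays were the ones that fell. Slc26a4, the anion exchanger pendrin, differed by -4.22 beside -4.89, with a difference between genotypes of 0.67 (limma adjusted p = 0.102) that was called at 0.93 (limma adjusted p = 0.00247) without wild-type lateral replicate 3. Slc30a2, a zinc transporter, read 9.68, 9.44 and 9.70 in lateral and 5.42, 5.78 and 5.32 in ventral, a difference of 4.09 ± 0.179 against 2.60 (limma adjusted p = 0.00273 between genotypes). Atp12a, a proton pump subunit, differed by 4.77 ± 0.222 against 2.69 (limma adjusted p = 0.00131). Of 37 measured genes of ion, water and zinc transport, 14 were called higher in lateral and 13 higher in ventral, and 15 were called between genotypes, 6 more lateral and 9 more ventral. Of the 15 that were lobe genes in wild type, 9 were kept. Here and for every list below, the shares over all genes to read these counts against are 35.5% called higher in lateral, 26.9% higher in ventral, 8.58% called between genotypes and 66.3% of lobe genes kept, and the counts of this list lie near them except for those between genotypes.

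Of the wild-type lobe genes that were not called or reversed in the knockout, 111 had been lateral and 22 ventral. For Plau and Nefh it was the lateral signal that fell, as it was for Emx2, which was still called at under 1 log2 unit. For others, such as the collagen chain Col5a2, the ventral signal rose (0.60) and the lateral change was not called. Plau, the urokinase-type plasminogen activator, read 11.01, 10.73 and 11.20 in wild-type lateral arrays and 5.84, 6.43 and 5.27 in knockout lateral arrays. The ventral arrays read 6.34, 6.69 and 6.41 in the knockout. Knockout lateral arrays thus reached no higher than the ventral range, and the wild-type difference of 5.04 became -0.64 ± 0.245 (-5.67 ± 0.347 between genotypes, limma adjusted p = 1.05e-06). The sign of the knockout difference is weak, since it was -0.35 and not called without knockout lateral replicate 3 (limma adjusted p = 0.186) and not called with the 6 knockout arrays fitted alone (limma adjusted p = 0.0516).

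Emx2, a homeobox gene of the developing urogenital tract, read 8.55, 8.43 and 8.19 in wild-type lateral and 4.13, 4.36 and 4.21 in knockout lateral arrays, beside 3.70, 3.77 and 3.68 in knockout ventral arrays. The lateral excess shrank from 4.77 to 0.52 ± 0.108 (-4.25 ± 0.153 between genotypes, limma adjusted p = 1.03e-08). Lateral knockout arrays still lay above the ventral ones, at low signal. Nefh, the heavy neurofilament chain, read 8.51, 8.57 and 8.87 in wild-type lateral and 4.29, 4.46 and 4.07 in knockout lateral arrays, and the knockout difference of -0.10 was not called (limma adjusted p = 0.528). Its difference between genotypes was -4.59 ± 0.19 (limma adjusted p = 2.97e-08).

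The lateral excess of some enzymes and host-defence genes shrank too, though Defb42 and Cyp4a12a still counted as kept. Defb42, a beta-defensin, read 11.20, 11.23 and 11.26 in wild-type lateral and 7.0, 7.0 and 6.38 in knockout lateral arrays, and its excess shrank from 7.11 to 2.76 ± 0.142 (limma adjusted p = 6.29e-08 between genotypes). Lateral arrays stayed above the ventral ones, which read 4.02, 4.13 and 3.94. Cyp4a12a, a fatty acid hydroxylase that responds to androgen, read 9.75, 9.53 and 9.81 in wild-type lateral and 4.62, 4.20 and 2.62 in knockout lateral arrays. Its remaining difference of 1.04 ± 0.372 became 1.64 without knockout lateral replicate 3, and it was not called without any 1 of the other 5 knockout arrays (0.64, limma adjusted p = 0.129, without knockout lateral replicate 1). Cdo1, cysteine dioxygenase, went from 3.99 to 0.52 (limma adjusted p = 0.0633 in the knockout), or to 0.81 (limma adjusted p = 0.00339) without knockout lateral replicate 3. Without wild-type ventral replicate 3 its knockout difference of 0.52 was called (limma adjusted p = 0.0264). Ptgds, a prostaglandin D synthase, went from 3.30 to -0.35 (limma adjusted p = 0.214). Without knockout ventral replicate 3 the knockout difference of Ptgds was -0.61 and called (limma adjusted p = 0.0355), and as deposited it was -0.71 (limma adjusted p = 0.0205).

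Among 20 measured beta-defensins, 10 were called higher in lateral and 5 higher in ventral in the knockout. The list was divided, with a median difference of 0.17 beside 0.22 in wild type, and 8 of its members were at low signal in all 4 groups. Defb29 stayed a ventral gene, at -3.54 beside -3.58. Defb1 was called higher in lateral in the knockout, though at under 1 log2 unit. Its difference was 0.94 ± 0.0987 there and -0.16 in wild type (limma adjusted p = 0.000429 between genotypes), its ventral arrays falling to 11.98, 11.92 and 12.28.

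Seminal vesicle and coagulating gland products remained lateral at a lower level. Svs4, a seminal vesicle secretory protein, read 9.04, 8.80 and 8.58 in knockout lateral arrays and 12.16, 12.11 and 12.24 in wild-type ones, with low signal in both sets of ventral arrays. The lateral excess shrank from 9.14 to 5.24 ± 0.297 (-3.90 ± 0.421 between genotypes, limma adjusted p = 0.000122), and each knockout lateral array lay below each wild-type one. Svs2, the main clotting protein of the copulatory plug, read 12.09, 12.28 and 9.02 in knockout lateral arrays, the last being replicate 3, and 3.73, 3.56 and 3.87 in ventral ones. In wild-type ventral arrays it read 2.68, 2.90 and 7.33, so replicate 3 stood apart there too. Its lobe difference was 7.41 ± 1.03 in the knockout (8.46 without knockout lateral replicate 3) and 9.18 in wild type.

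The difference between genotypes depended on those 2 arrays for both Svs2 and Pate4. For Svs2 it was -1.77 (limma adjusted p = 0.486) with all arrays, -3.28 (limma adjusted p = 0.06) without wild-type ventral replicate 3, -0.72 (limma adjusted p = 0.789) without knockout lateral replicate 3, and -2.23 (limma adjusted p = 2.68e-05) without both. Pate4, a secreted relative of Pate14, read 11.35, 11.74 and 8.56 in knockout lateral arrays and 2.55, 2.54 and 6.39 in wild-type ventral ones. It differed by -3.13 between genotypes (limma adjusted p = 0.157), by -4.41 (limma adjusted p = 0.0127) without the wild-type and -2.13 (limma adjusted p = 0.293) without the knockout array, and by -3.41 without both arrays (limma adjusted p = 2.68e-05). Of 12 measured genes of the list, 11 were called higher in lateral and 1, the amino acid transporter Slc6a14, higher in ventral. Of 10 lobe genes 9 were kept, while 7 of the 12 were called between genotypes, all 7 more ventral in the knockout. The median difference was 2.69 beside 4.59 in wild type, and 3.06 without knockout lateral replicate 3.

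The lateral level of this list, of which Svs4 is a member, was lower in the knockout, as was that of Plau and Emx2. The list's mean was 9.34 to 9.47 log2 units in wild-type lateral arrays and 8.13, 8.15 and 7.48 in knockout lateral arrays, the lowest being replicate 3. Plau, Defb42 and Cyp4a12a were also lowest on replicate 3 of these, while Emx2 and Elf5 were not. In ventral arrays the list's mean was 4.45, 4.58 and 5.31 in wild type and 4.73 to 4.96 in the knockout. Not every member moved, since Ceacam10 differed by 4.77 ± 0.159 beside 4.37, with 10.75, 10.84 and 10.70 in knockout lateral arrays, and Spink8, a protease inhibitor, by 2.29 beside 2.21. What part the amount of seminal vesicle or coagulating gland tissue had in the shrinking of Plau, Emx2, Defb42 and the others was not tested.

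**Figure D3:**
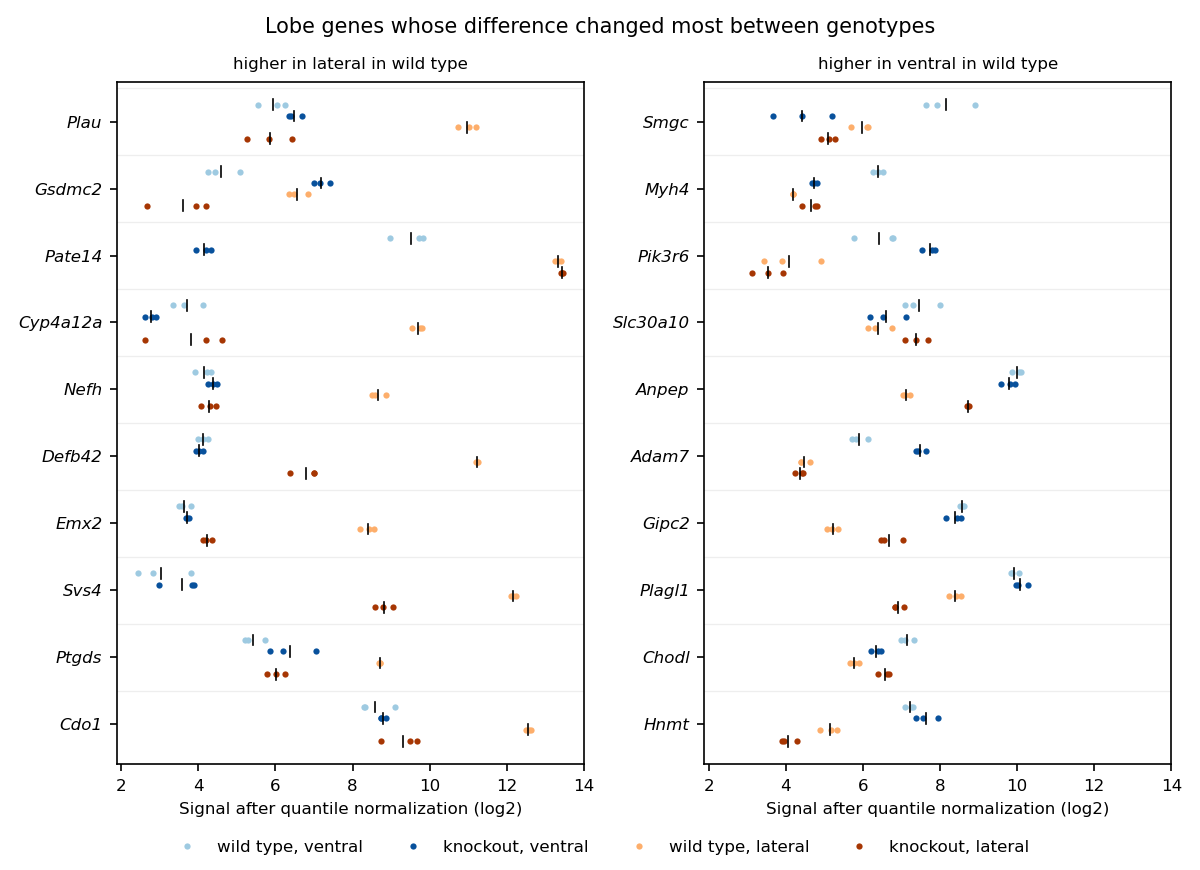
Signal (log2 units, horizontal axis) on each array for the 10 lateral (left) and 10 ventral (right) wild-type lobe genes with the largest difference between genotypes, with points for arrays and a bar for each group mean. For Plau, Nefh, Emx2 and Cyp4a12a the knockout lateral arrays lie near the ventral ones, while for Pate14 the knockout ventral arrays fell away from the wild-type ones.

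Among ventral genes, the excess of Anpep and Gipc2 shrank through a rise in lateral signal, and that of Smgc through a fall in ventral signal. Anpep, the membrane alanyl aminopeptidase, read 9.81, 9.95 and 9.58 in ventral and 8.72, 8.71 and 8.74 in lateral knockout arrays. Its ventral excess shrank from -2.89 to -1.06 ± 0.0997 (1.83 ± 0.141 between genotypes, limma adjusted p = 8.93e-06), and the lateral arrays had read 7.22, 7.05 and 7.08 in wild type. Gipc2, a PDZ-domain protein, shrank likewise from -3.37 to -1.69, with lateral arrays at 7.05, 6.55 and 6.46 in place of 5.36, 5.20 and 5.08. Both stayed ventral genes, with no overlap between the lobes.

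Smgc, a secreted protein known from the submandibular gland, lost its ventral signal. It read 3.66, 4.43 and 5.20 in knockout ventral arrays and 7.91, 7.64 and 8.92 in wild-type ones, so that the difference went from -2.18 to 0.67 (not called, limma adjusted p = 0.109; 2.86 ± 0.493 between genotypes, limma adjusted p = 0.00329). The knockout lobes overlapped. Without knockout ventral replicate 3 the knockout difference was called, at 1.06 (limma adjusted p = 0.0167), and of its 2 probe sets the other one was called higher in ventral. Chodl, a C-type lectin membrane protein, went from -1.37 to 0.22, with change in both lobes (-0.79 in ventral and 0.79 in lateral), and was called in the knockout without knockout lateral replicate 3 (0.31, limma adjusted p = 0.0383).

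Other ventral genes became more ventral. Adam7, a member of the ADAM family known from the epididymis, read 7.44, 7.38 and 7.65 in knockout ventral arrays and 5.82, 6.14 and 5.73 in wild-type ones, and its difference grew from -1.42 to -3.12 ± 0.119 (limma adjusted p = 6.04e-05 between genotypes). Here the ventral arrays rose, and the lateral ones stayed at low signal. Plagl1, an imprinted zinc-finger factor, grew from -1.52 to -3.18, with lateral arrays at 6.83, 6.83 and 7.06 in place of 8.42, 8.24 and 8.54. The histamine methyltransferase Hnmt grew from -2.07 to -3.59. Pik3r6 went from -2.34 to -4.20, a change that was not called without any of 5 arrays (-1.52, limma adjusted p = 0.0688, without wild-type ventral replicate 3).

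Of the 11 genes called the other way in the knockout, 10 had been lateral and 1 ventral. Gsdmc2, a gasdermin, had the largest turn. It read 7.41, 7.01 and 7.16 in ventral and 2.67, 4.19 and 3.94 in lateral knockout arrays, and 4.26, 5.08 and 4.42 in ventral and 6.49, 6.84 and 6.34 in lateral wild-type arrays. The difference went from 1.97 to -3.60 ± 0.319 (-5.57 ± 0.452 between genotypes, limma adjusted p = 1.37e-05), with signal gained in ventral and lost in lateral. No other reversed gene exceeded about 1 log2 unit in the knockout. Ces1d, a carboxylesterase, went from 2.47 to -0.58, Alox5ap, which serves leukotriene synthesis, from 1.92 to -0.99, and Dusp4, a phosphatase of MAP kinases, from 2.14 to -0.68. S100a4 went from 1.11 to -0.37, Sspn from 1.30 to -0.55 and Scara3 from 1.10 to -0.70. The knockout call of Scara3 was lost without any of 3 arrays (-0.49, limma adjusted p = 0.0936, without knockout lateral replicate 3). Slc30a10, a manganese transporter, was the ventral gene, going from -1.06 to 0.78. Its knockout call was lost without any of 3 arrays (0.57, limma adjusted p = 0.1, without knockout ventral replicate 2), and as deposited its knockout difference was 0.31 and not called (limma adjusted p = 0.317). For Mecom and Lrrn1 another probe set was called the opposite way in the knockout, and the mean over the probe sets of Mecom was 0.03, so their reversal is not settled.

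A further 54 genes were told apart by lobe only in the knockout, in that they were not called in wild type, were called at 1 log2 unit or more in the knockout, and were called between genotypes. Of these, 15 were higher in lateral and 39 higher in ventral. Pbsn, probasin, a lipocalin secreted under androgen control, read 13.56, 13.48 and 13.61 in lateral and 12.04, 11.84 and 12.10 in ventral knockout arrays, a difference of 1.56 ± 0.0898 (limma adjusted p = 1.11e-08). In wild type all 6 arrays lay between 13.30 and 13.60, with a difference of 0.14 (limma adjusted p = 0.199). That is near the top of the scale, where a true difference can be larger than the printed one. Ventral knockout arrays thus stood apart from the other 9 (1.42 ± 0.127 between genotypes, limma adjusted p = 2.91e-05).

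Of the 8 lateral genes of this kind with the largest change, 6 shared that form, called lower in the ventral knockout and not called in the lateral lobe. Stra6, the receptor for retinol-binding protein, read 5.23, 4.70 and 4.77 in ventral and 6.36, 6.36 and 6.83 in lateral knockout arrays, where the wild-type ventral arrays read 6.94, 6.98 and 7.94. Its difference was 1.62 ± 0.23 against -0.50. The amino acid transporter Slc7a12 differed by 2.46 against 0.21, Stmnd1 by 1.26 against -0.28 and the inositol transporter Slc5a3 by 1.07 against -0.21, each with lateral levels that were not called between genotypes. Atp13a4, a P-type transport ATPase, and Dmkn, dermokine, took the other course, with lateral knockout arrays risen to 7.63, 7.76 and 7.51 and to 5.82, 4.62 and 5.30. For Dmkn the genotype call was lost when 2 arrays were left out together (limma adjusted p = 0.0526 without both lateral replicates 3). Upb1 differed by 1.14, with a call between genotypes that was lost when any of 9 arrays was left out.

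Ventral genes of this kind gained signal in ventral, lost it in lateral, or both. Tcim read 9.89, 9.76 and 9.37 in ventral and 7.12, 7.17 and 7.18 in lateral knockout arrays, a difference of -2.52 ± 0.115 against -0.07 in wild type (limma adjusted p = 2.46e-06 between genotypes). The lateral arrays were lower than all others. Pde3b, a phosphodiesterase, read 8.98, 9.0 and 9.27 in ventral and 7.61, 7.46 and 7.49 in lateral, a difference of -1.56 against -0.02. Pdgfra, the platelet-derived growth factor receptor of fibroblasts, differed by -1.26 ± 0.12 against 0.11, the cadherin Cdh11 by -1.74 against -0.35 and Hsd11b1, which reactivates glucocorticoids, by -1.38 against -0.04. In these last 3, the ventral arrays rose and the lateral arrays fell, each at limma adjusted p under 0.05 within its lobe.

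**Figure D4:**
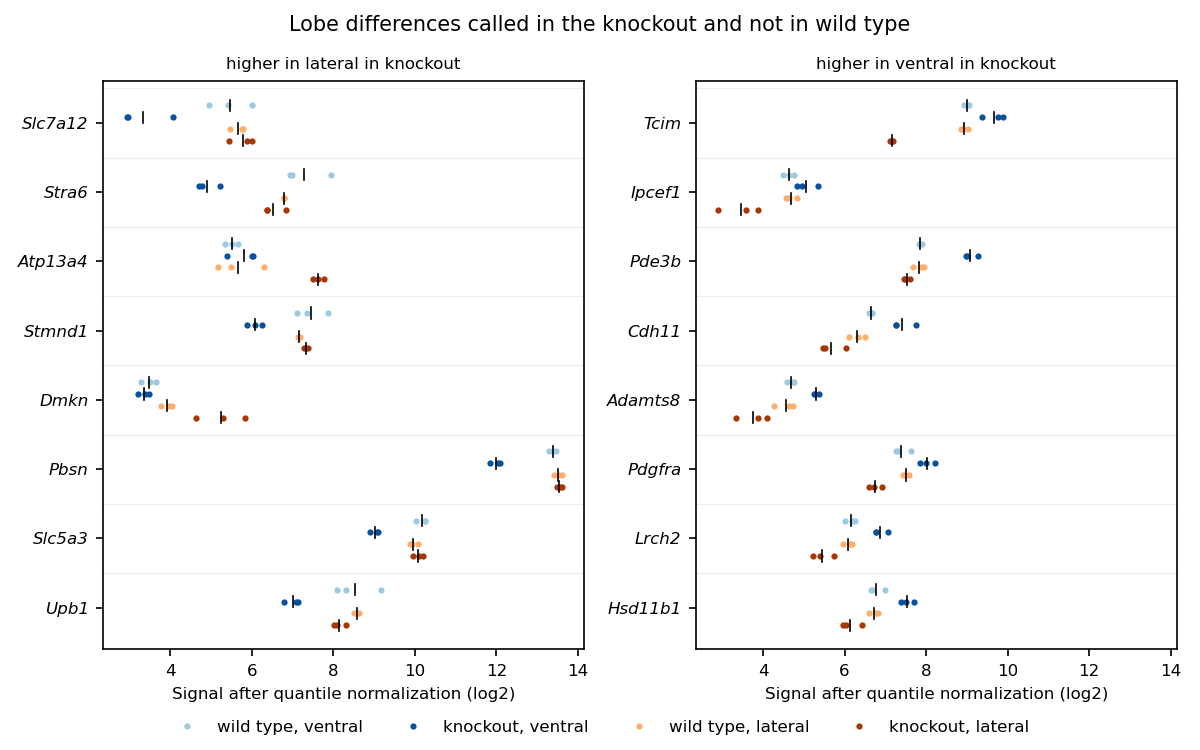
Signal (log2 units, horizontal axis) on each array for the 8 genes with the largest change among those told apart by lobe only in the knockout, higher in lateral (left) or in ventral (right), with points for arrays and a bar for each group mean. For Pbsn, Stra6 and Slc7a12 the knockout ventral arrays stand alone, while for Tcim and Pdgfra the knockout lateral arrays lie below the rest.

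The promoters of 3 genes that changed in different lobes are shown because Pbsn and Pate14 fell in ventral and Emx2 in lateral knockout tissue, and because Pbsn is the classical androgen-driven gene of the prostate. They are the 250 bases before the RefSeq start in GRCm38.p6, 5′ to 3′ on the strand of the gene, with TGTTCT or AGAACA, the hexamer of the androgen receptor element in either orientation, in capitals. Pbsn is at chrX:77853501-77853750 (minus strand), Pate14 at chr9:36638603-36638852 (minus strand) and Emx2 at chr19:59458440-59458689 (plus strand).
Pbsn: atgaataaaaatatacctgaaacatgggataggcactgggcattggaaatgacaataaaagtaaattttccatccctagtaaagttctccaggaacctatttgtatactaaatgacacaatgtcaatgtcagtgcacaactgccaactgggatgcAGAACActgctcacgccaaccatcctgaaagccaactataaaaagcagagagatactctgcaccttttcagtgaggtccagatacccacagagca
Pate14: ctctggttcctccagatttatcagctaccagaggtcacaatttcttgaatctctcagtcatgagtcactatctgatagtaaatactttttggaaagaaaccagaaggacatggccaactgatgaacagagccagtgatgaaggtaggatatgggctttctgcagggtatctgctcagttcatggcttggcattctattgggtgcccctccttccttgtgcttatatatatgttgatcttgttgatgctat
Emx2: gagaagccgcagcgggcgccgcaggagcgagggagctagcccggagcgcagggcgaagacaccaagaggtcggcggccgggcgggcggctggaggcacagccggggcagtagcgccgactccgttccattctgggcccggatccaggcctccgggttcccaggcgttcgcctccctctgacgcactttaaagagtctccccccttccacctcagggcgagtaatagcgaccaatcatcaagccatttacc
Pbsn held 1 match, starting at base -95, and the windows of Pate14 and Emx2 held none. Over all 32851 promoter windows 16.1% held the hexamer. The share was 12.6% of 581 windows of lateral genes that were kept (449 of 598 genes matched) and 12.1% of 107 windows of lateral genes not called or reversed (80 of 111 matched). It was 13.4% of 672 windows of ventral genes that were kept (540 of 677) and 16.7% of 18 windows of ventral genes not called or reversed (17 of 22). Matches of the forkhead motif TGTTTAC on either strand, which does not contain the hexamer, were in 3.17% of all windows in 2.07% of those of kept and 2.8% of those of lost lateral genes, and in 2.38% of those of kept and 11.1% of those of lost ventral genes, the last being 2 of 18. A match describes the letters and not a bound site.

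Among developmental transcription factors, Gata2, Gata3 and Six2 kept their lobe differences, while those of Elf5, Emx2 and Foxi1 shrank. Gata2, a factor that works with the androgen receptor, read 11.65, 11.60 and 11.62 in lateral and 7.52, 7.29 and 7.42 in ventral knockout arrays, a difference of 4.21 ± 0.125 against 2.94 in wild type (1.27 ± 0.176 between genotypes, limma adjusted p = 0.000758). Gata3 stayed at 2.08 beside 2.23, with 10.96, 11.09 and 10.87 in lateral and 8.85, 8.92 and 8.90 in ventral arrays. Six2, a homeobox gene, stayed ventral at -2.95 beside -2.60, against low lateral signal. These 3 factors told the lobes apart without overlap in both genotypes.

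Elf5, an ETS factor of secretory epithelia, fell in lateral arrays from 9.83, 9.77 and 10.11 to 5.92, 5.79 and 5.93, and its difference shrank from 4.63 to 1.22 ± 0.126 (-3.42 ± 0.179 between genotypes, limma adjusted p = 2.41e-07). Foxi1, the forkhead factor of proton-secreting cells, fell from 6.63, 6.58 and 6.57 to 3.40, 3.78 and 3.30, which is low signal (-2.99 ± 0.227, limma adjusted p = 8.46e-06). In the ventral lobe Elf5 differed by -0.61 between genotypes (limma adjusted p = 0.0104) and Foxi1 by -0.12 (limma adjusted p = 0.713). Of 48 measured developmental factors outside the Hox clusters, 24 were called higher in lateral and 13 higher in ventral, and of 17 wild-type lobe genes 7 were kept, Elf5 among them, 9 were called at under 1 log2 unit and 1, Osr1, was not called. Between genotypes 12 were called, 3 more lateral and 9 more ventral. The median was 0.25 in both genotypes, and -0.22 in the knockout with values as deposited.

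Within the Hox clusters some lobe differences held and others shrank. Hoxb9 read 8.06, 8.32 and 8.24 in lateral and 6.03 to 6.09 in ventral knockout arrays, 2.15 ± 0.0878 beside 2.29 in wild type. Hoxd12 stayed at 1.16 beside 1.17 and Hoxa9 at 1.09 beside 1.12, and Hoxb13 stayed ventral at -0.77 beside -0.68. For these 4 the difference between genotypes was not called, with limma adjusted p from 0.55 for Hoxb9 to 0.977 for Hoxd12.

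Hoxd9, by contrast, fell in lateral arrays from 9.07, 9.0 and 9.18 to 7.22, 7.20 and 6.80, and its difference from 2.92 to 0.88 ± 0.136 (limma adjusted p = 3.92e-05 between genotypes). Hoxd13 shrank from 1.29 to 0.70, and Hoxd11 from 0.81 to -0.06 (limma adjusted p = 0.0115 and 0.0275). Of 14 measured Hox genes 7 were called higher in lateral and 4 higher in ventral, and 3 of 5 lobe genes were kept. Between genotypes 5 were called, all 5 more ventral in the knockout, and 4 of these 5 lie in the Hoxd cluster. The list's median lobe difference was 0.18 beside 0.61 in wild type, and -0.10 with values as deposited.

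Signals of ductal growth kept part of their pattern. Hey1, a target of Notch signalling, read 8.22, 8.49 and 8.32 in lateral and 6.05 to 6.11 in ventral knockout arrays, 2.27 ± 0.128 beside 2.41. Bmp7 differed by 1.97 beside 1.29 and the receptor Bmpr1b by -1.14 beside -1.28, both without a call between genotypes with all arrays (Bmp7 was called at 0.84, limma adjusted p = 0.0131, without wild-type ventral replicate 1). Lgr5, the R-spondin receptor of stem cells, read 7.94, 7.93 and 8.76 in ventral and 4.91, 5.12 and 5.16 in lateral, and grew from -1.73 to -3.15 ± 0.181 (limma adjusted p = 0.00437). Of 59 measured genes of this list 29 were called higher in lateral and 15 higher in ventral, and 9 of 18 wild-type lobe genes were kept. Between genotypes 12 of the 13 called lay more towards ventral, among them the secreted ligands Fgf7 (1.12 to 0.04), Bmp2 (1.5 to 0.41) and Bmp4 (1.08 to 0.47).

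Smooth muscle genes had smaller lateral excesses in the knockout, and fibroblast genes moved towards ventral. Of 15 smooth muscle genes, 13 were called higher in lateral and none higher in ventral, beside 15 higher in lateral in wild type. Between genotypes 12 of 15 were called, all 12 more ventral. Of 13 wild-type lobe genes in the list, 5 were kept. Actg2, the enteric smooth muscle actin, read 10.79 to 11.05 in lateral and 9.45, 9.25 and 9.29 in ventral knockout arrays, 1.62 ± 0.113 against 3.12 (-1.51 ± 0.16, limma adjusted p = 0.000108). Cnn1, calponin, went from 2.09 to 1.04 and Ppp1r12b, a subunit of myosin phosphatase, from 1.72 to 0.94. Both lobes contributed, since Cnn1 in the knockout differed from wild type by 0.68 in ventral and by -0.37 in lateral. The median of the list was 0.77 beside 1.72 in wild type.

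As a level, the smooth muscle list averaged 10.26 to 10.43 log2 units in knockout ventral and 9.67 to 9.96 in wild-type ventral arrays, and 11.06 to 11.24 in knockout lateral and 11.42 to 11.55 in wild-type lateral arrays. The groups did not overlap within either lobe.

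Of 20 fibroblast and matrix genes, 5 were called higher in lateral and 8 higher in ventral, where wild type had 14 and 4. The median changed sign, to -0.14 from 0.62. Between genotypes 15 of the 20 were called, 14 of them more ventral. Of 8 wild-type lobe genes in the list, 1 was kept. Thy1, a surface protein of stromal cells, kept a lateral excess of 1.95 ± 0.11 against 3.09, with 8.45, 8.22 and 8.12 in lateral and 6.41, 6.25 and 6.27 in ventral knockout arrays. Postn, periostin, went from 1.86 to 0.88, and Lum, the collagen-binding proteoglycan lumican, from 1.65 to -0.10. Col14a1 was ventral in both, at -1.09 and -0.85. Collagen chains divided, with Col5a2 and Col6a2 no longer called and Col1a2 called higher in ventral (-0.32 against 0.66).

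Nerve and Schwann cell genes were lateral in both genotypes. Of 10 measured, 8 were called higher in lateral and 1, Mbp, higher in ventral in the knockout, but 6 of the 8 probe sets of Mbp were called the other way, so its direction is not settled. The neurofilament gene Nefl read 6.51, 6.44 and 6.53 in lateral and 4.83, 4.78 and 4.75 in ventral, 1.71 ± 0.132 beside 2.19 (called between genotypes without wild-type lateral replicate 1, at -0.67, limma adjusted p = 0.013), and the neuronal tubulin Tubb3 went from 2.08 to 1.18 (limma adjusted p = 0.0126 between genotypes). Of 7 wild-type lobe genes in the list, 4 were kept. The mean of the list was 6.24 to 6.30 log2 units in knockout lateral and 7.02 to 7.29 in wild-type lateral arrays, and it lay between 5.55 and 5.66 in all ventral arrays. Nefh is itself 1 of the 10 members, so these levels fall with it in part by construction. Whether the amount of nerve tissue had a part in the fall of Nefh was not tested.

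Basal genes leaned to lateral in both genotypes. Of 14 measured, 12 were called higher in lateral and 1 higher in ventral, the same counts as in wild type, with medians of 0.88 and 0.77. Of 4 wild-type lobe genes in the list, 2 were kept. Krt5, the basal keratin, read 9.89, 10.04 and 10.03 in lateral and 8.82, 8.80 and 8.77 in ventral knockout arrays, 1.19 ± 0.084 against 1.81 (limma adjusted p = 0.00627 between genotypes). Of 15 luminal genes 7 were called each way, 2 of 4 lobe genes were kept, and 2 were called between genotypes. Prom1, a membrane glycoprotein of luminal cells, stayed lateral at 2.39 beside 2.75, and Cldn10, a tight-junction claudin, stayed ventral at -1.43 against -2.02, with a genotype call (limma adjusted p = 0.0312) that was lost without any of 10 arrays.

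Genes known from luminal cells of the proximal ducts were found on both sides. Cbr2, a carbonyl reductase, read 12.78 to 13.02 in ventral and 9.42, 9.44 and 9.47 in lateral knockout arrays, -3.49 ± 0.147 beside -3.16. Pigr, the receptor that carries immunoglobulins across epithelium, differed by -2.92 beside -3.07, and Krt7 by -1.39 beside -1.81, with a genotype call for Krt7 without wild-type lateral replicate 2 (0.53, limma adjusted p = 0.0119). Psca, prostate stem cell antigen, took the other side, at 1.70 ± 0.111 against 0.54 (limma adjusted p = 0.000634 between genotypes). Of 12 measured, 5 were called higher in lateral and 7 higher in ventral, where wild type had 5 and 4, and 3 of 4 lobe genes were kept.

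Among secretory products of the prostate, 17 of 26 were called higher in lateral and 6 higher in ventral, and 11 of 14 lobe genes were kept. Between genotypes 13 were called, 12 of them more lateral in the knockout, and the list's median was 0.82 beside 0.65. Lcn2, lipocalin 2, was the member that went the other way, from 2.00 to -0.09. Of 18 kallikrein genes 11 were called higher in lateral and 1 higher in ventral, beside 4 and 2 in wild type, with medians of 0.42 and 0.10, and 8 of the 18 had low signal in all groups. Klk1b8 was the single lobe gene, at 2.58 beside 2.19 against low ventral signal. Only 1 of the 18, Klk1b24, was called between genotypes (1.16 ± 0.219, limma adjusted p = 0.00558). Near-identical kallikrein transcripts can bind the same probes.

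Of 26 measured protease inhibitors 14 were called higher in lateral and 8 higher in ventral, and 9 of 10 lobe genes were kept. Slpi, the secretory leukocyte protease inhibitor, read 8.97, 8.69 and 9.05 in lateral and 6.39, 6.44 and 5.92 in ventral knockout arrays, 2.65 ± 0.14 against 1.18 (limma adjusted p = 0.000634 between genotypes). Wfdc6a, of the same WAP-domain family, read 8.58, 8.83 and 8.77 in lateral against low ventral signal, 4.46 ± 0.146 against 2.19 (limma adjusted p = 3e-05). In both the lateral lobe rose (1.54 for Slpi and 2.32 for Wfdc6a) and the ventral lobe was not called.

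Genes of the unfolded protein response, which help fold proteins in the endoplasmic reticulum, were more lateral in the knockout. Of 30 measured, 24 were called higher in lateral and 2 higher in ventral, beside 14 and 5 in wild type, and 15 were called between genotypes, all 15 more lateral. Sdf2l1, a chaperone cofactor, read 11.66, 11.67 and 11.69 in lateral and 10.08, 10.24 and 10.04 in ventral knockout arrays, 1.55 ± 0.0834 against 0.80 (limma adjusted p = 0.00159). Pdia4, a disulphide isomerase, went from 0.72 to 1.32 and Sel1l, of the degradation pathway, from 0.67 to 1.27. Creb3l1, a membrane-bound factor of secretory cells, stayed at 1.81 beside 1.66. The median was 0.57 beside 0.14, and 0.07 in the knockout with values as deposited, where all genes had a median of -0.31.

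Interferon-response genes were ventral in both genotypes. Ifit1, an antiviral protein, read 8.26, 8.43 and 8.79 in ventral and 5.04, 4.84 and 5.37 in lateral knockout arrays, -3.41 ± 0.20 beside -3.52. Rsad2, viperin, differed by -2.81 beside -3.04. Of 24 measured, 13 were called higher in ventral and 4 higher in lateral, all 7 lobe genes were kept, and 2 were called between genotypes. Leukocyte genes had a similar lean, with 11 of 24 called higher in ventral and 4 higher in lateral, but 2 of their 5 lobe genes were kept. Jchain, the joining chain of secreted immunoglobulins, read 6.72, 6.67 and 7.20 in ventral arrays against low lateral signal, -2.89 beside -3.08.

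Androgen-regulated genes did not lean to either lobe as a list. Of 30 measured, 11 were called each way, with a median of -0.06, 6 of 9 lobe genes were kept, and 7 were called between genotypes. Acpp, prostatic acid phosphatase, read 7.34, 7.22 and 7.35 in ventral and 4.19, 4.36 and 4.54 in lateral, -2.94 ± 0.166 against -2.12. Its genotype call (limma adjusted p = 0.0468) was lost when any of 10 arrays was left out. Fgfbp1, which releases fibroblast growth factors from matrix, grew from -0.84 to -2.27 ± 0.122 (limma adjusted p = 0.000287).

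**Figure D5:**
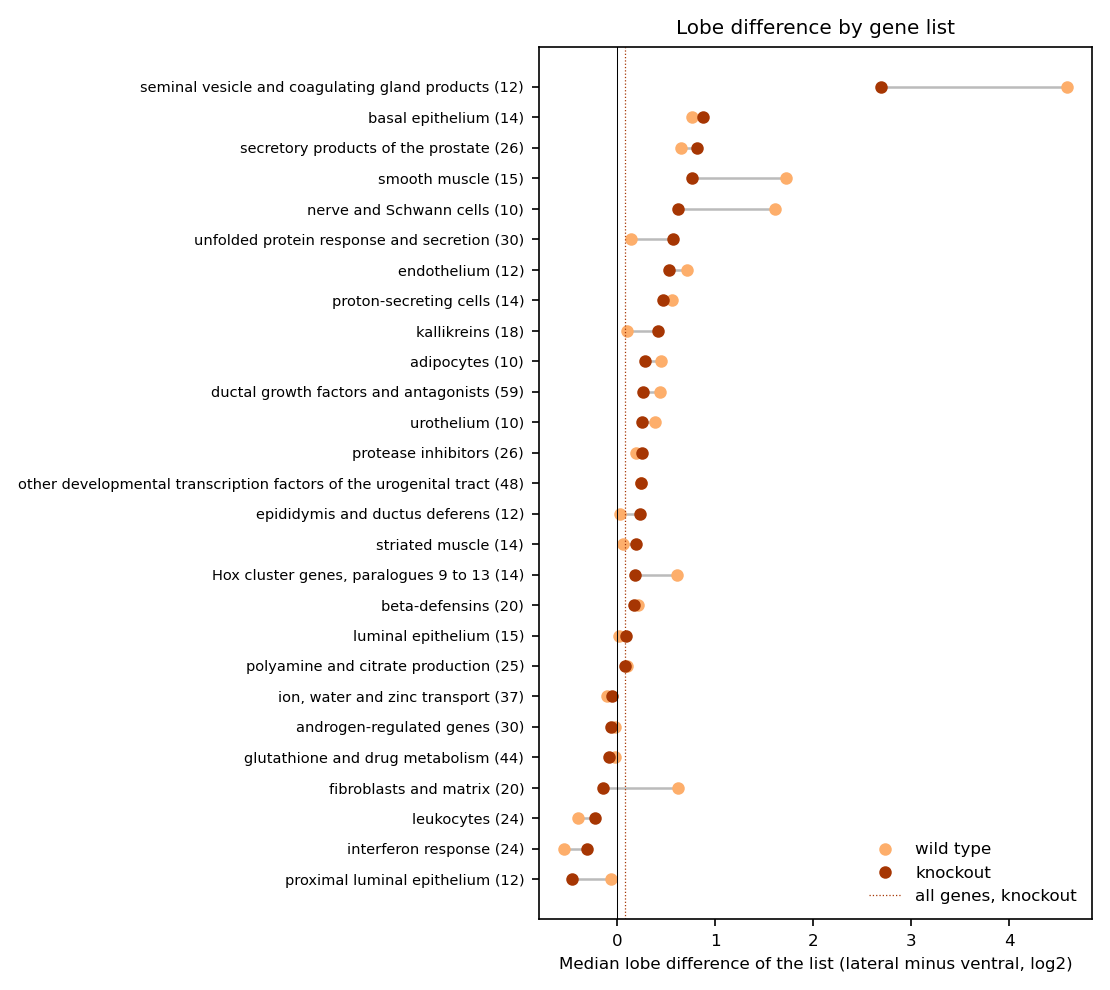
Median lobe difference (lateral minus ventral, log2 units) of each of 27 gene lists in wild type and in the knockout, with the number of measured genes in brackets and a dotted line at the knockout median of all genes, 0.08. Seminal vesicle products (2.69 beside 4.59), smooth muscle, nerve and fibroblast genes lie closer to 0 or below it in the knockout, and genes of the unfolded protein response lie further to lateral.

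Of the remaining lists, 12 endothelial genes had 8 called higher in lateral and 1 higher in ventral, with a median of 0.53 beside 0.71. Of their 2 wild-type lobe genes none was kept. Glutathione and drug metabolism genes were divided, 10 of 44 higher in lateral and 19 higher in ventral, and 10 of the 11 called between genotypes lay more towards ventral. Gsta2, a glutathione transferase, stayed lateral at 3.78 beside 3.64 and Cyp2f2 stayed ventral at -1.62 beside -1.23. Of 14 genes known from proton-secreting cells 11 were called higher in lateral and 2 higher in ventral, among them Slc26a4 at -4.22. Car2, carbonic anhydrase, stood at 3.15 beside 2.73, and its genotype difference of 0.43 was called without knockout ventral replicate 2 (0.56, limma adjusted p = 0.0398). Of 10 urothelial genes 5 were called higher in lateral and 2 higher in ventral, and 1 of 3 lobe genes was kept. Upk1b was lateral at 1.87 beside 1.80. The ventral members were Gsdmc2 at -3.60 against 1.97 and Upk1a at -0.73 against -1.41. Of 10 adipocyte genes 5 were called higher in lateral, and Plin4 went from 1.94 to 1.34. Striated muscle genes divided 6 to 3 of 14, with Myh2 at -2.75 and Tnnc2 at 1.03. Epididymal genes numbered 7 higher in lateral and 3 higher in ventral of 12, and polyamine and citrate genes 6 and 10 of 25, with Arg1 at -1.14 and Odc1 at -0.93.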

How the data were processed

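Total RNA of ventral or lateral prostate from wild-type and Med1 knock out mice was measured on 12 arrays, 3 in each of 4 groups. The authors deposited log2 signals made with RMA in Affymetrix Expression Console, per the submitters' processing notes, with versions not given in the sources used here. Here all 12 arrays were quantile-normalized together. Of 45101 probe sets, 34958 carried 1 symbol, 932 several and 9211 none listed, and 34754 of the first were matched to RefSeq (GRCm38.p6). Each of 18194 genes was represented by its brightest probe set on average, of which 9012 had more than 1.

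All 4 groups were fitted in limma 3.58.1 (R 4.3.3) with eBayes and Benjamini-Hochberg adjustment over all genes. The number of arrays limits precision. The fit was tested on simulated data. The rule named the 15 largest knockout lobe differences in each direction with arrays that do not overlap, the 10 largest genotype differences among lateral and among ventral lobe genes, the 8 largest in each direction among genes told apart only in the knockout, all reversed genes, up to 4 genes per list with the smallest knockout adjusted p, and Med1, passing over uncharacterized loci. Krt8, Krt18, Atp12a, Slc6a14, Elf5, Foxi1, Hoxa9, Hoxd9, Hoxd11, Hoxd13, Fgf7, Bmp2, Bmp4, Lum, Col1a2, Col5a2, Col6a2, Osr1 and Lcn2 fall outside the rule and were chosen after their values were seen. The comparison and the 27 lists (567 genes measured of 650) were chosen with earlier results of these data known. Alternatives were other scalings, probe-set summaries, filters, variance models, a replicate block and each array left out.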

Additional observations from a re-analysis of the deposited data

Results flagged for a closer look

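The lobe difference of the genes below differed between genotypes in limma's test of that difference (knockout minus wild type, log2 units, adjusted p under 0.05). Because the same arrays chose many of these genes by size, the sizes are descriptions. No explanation was tested for any of them.

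Among wild-type lateral genes the difference between genotypes was -5.67 for Plau, -5.57 for Gsdmc2, -4.96 for Cyp4a12a, -4.59 for Nefh, -4.35 for Defb42 and -4.25 for Emx2. It was -3.90 for Svs4, -3.65 for Ptgds and -3.46 for Cdo1. Pate14, at 5.46, moved the other way. Among the other reversed genes it was -3.05 for Ces1d, -2.91 for Alox5ap, -2.81 for Dusp4, -2.71 for Lrrn1, -2.29 for Mecom, -1.85 for Sspn, -1.80 for Scara3 and -1.48 for S100a4.

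Among wild-type ventral genes it was 2.86 for Smgc, 2.12 for Myh4, 1.84 for Slc30a10, 1.83 for Anpep, 1.68 for Gipc2 and 1.59 for Chodl, whose ventral excess shrank or was lost. It was -1.85 for Pik3r6, -1.69 for Adam7, -1.66 for Plagl1 and -1.51 for Hnmt, whose ventral excess grew. For Myh4 and Smgc another probe set was called the opposite way in the knockout.

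Among genes told apart by lobe only in the knockout it was 2.24 for Slc7a12, 2.12 for Stra6, 1.68 for Atp13a4, 1.54 for Stmnd1, 1.46 for Dmkn, 1.42 for Pbsn, 1.28 for Slc5a3 and 1.09 for Upb1 towards lateral. Towards ventral it was -2.44 for Tcim, -1.63 for Ipcef1, -1.54 for Pde3b, -1.40 for Cdh11, -1.39 for Adamts8, -1.37 for Pdgfra, -1.35 for Lrch2 and -1.34 for Hsd11b1.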

How the results depend on the processing

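With values as deposited 2118 of 2805 lobe genes were kept (75.5%), at 53.8% for lateral and 80.9% for ventral genes. With dim genes left out (10916 tested) there were 7436 knockout calls, 6864 wild-type calls and 845 kept of 1248 lobe genes (67.7%), since fewer genes were tested. At an adjusted p under 0.01, 638 genes differed between genotypes. With arrays left out, knockout calls ran from 10254 to 11283, wild-type calls from 9260 to 10947, kept lobe genes from 1245 to 1322 and calls between genotypes from 826 to 1549. The lowest of these, 826, left out both lateral replicates 3, an alternative chosen after seeing the data. With array weights 2104 genes differed between genotypes. Directions reversed for Csta1 between genotypes (-0.89 to 1.26 with single arrays left out, and 1.15 without both lateral replicates 3), for the knockout difference of Mbp (0.64) and Mecom (0.03) as the mean of probe sets, and for Med1 as deposited (-0.46); the cause was not tested. Over the named genes, 148 values lost a call, 63 gained one and 7284 kept direction and side.

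Same-numbered arrays of the lobes did not deviate together (r of -0.0322, -0.0268 and -0.00551 in the knockout), and 3 of 12 arrays correlated best with their own number. With a replicate block there were 11281 knockout calls, 10306 wild-type calls, 1275 kept lobe genes and 1425 calls between genotypes. Lobe and normalization run cannot be told apart, 3 arrays a group can leave small differences uncalled, and signals near background give only bounds.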
